A study of Homo sapiens with 9 samples.

Results

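The adenylate cyclases that span the cell membrane form a family of 9 genes, ADCY1 to ADCY9. All 9 are represented on the array by 11 probes that carry one of these names, a pair each for ADCY2 and ADCY4 and 1 for every other gene, among 58201 probes and 43395 genes in all. RNA was measured in 3 stable derivatives of T47D, a widely used luminal breast cancer line of human origin. T47D-PA6 carried full-length cDNA of PTH-AS, a long noncoding RNA encoded next to the parathyroid hormone gene, T47D-PA5 carried an incomplete PTH-AS cDNA, and T47D-VC1 carried the empty vector. All 3 lines went through antibiotic selection, and each stands for 1 selected stable line, so the transgene and other differences between selected lines cannot be told apart. Each line was measured on 3 single-color arrays, 9 in all. Whether the 3 arrays of a line came from separate cultures is not given in the sources used here, so p-values measure only the spread between these arrays.

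Adenylate cyclases make the second messenger cyclic AMP from ATP. Receptors coupled to the stimulatory G protein switch them on, and cyclic AMP then activates protein kinase A, exchange factors and, through CREB, the transcription of target genes. The members differ in what else controls them. ADCY1, ADCY3 and ADCY8 are stimulated by calcium and calmodulin, ADCY2, ADCY4 and ADCY7 by G protein beta and gamma subunits, ADCY5 and ADCY6 are inhibited by calcium and by the inhibitory G protein, and ADCY9 responds poorly to the activator forskolin. In breast epithelium, cyclic AMP carries signals from prostaglandin, adrenergic and calcitonin receptors. The parathyroid hormone receptor also acts through this pathway.

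The probes that the results turn on are those of ADCY1 and ADCY4, and their sequences are shown because the 2 ADCY4 probes gave different results. They are printed 5′ to 3′ in lower case, with no base singled out. On hg19, the build named in the files, the ADCY1 probe lies on the plus strand at chr7:45762328-45762385, a span of 58 bases for a probe of 60 as the files give it, at position 12111 of transcript NM_021116. Only the first 30 of its 60 bases are given.
ADCY1, first 30 bases: agagtgatgtgggcaagggtgtcaattttc
The first ADCY4 probe, at transcript position 2401, lies on the minus strand at chr14:24793272-24793331. The second, at position 3242 of another transcript, lies on the minus strand at chr14:24787668-24787727, nearer the 3′ end by its genomic position. The files list the same 3 RefSeq transcripts for both.
ADCY4, position 2401: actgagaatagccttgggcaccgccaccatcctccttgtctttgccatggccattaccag
ADCY4, position 3242: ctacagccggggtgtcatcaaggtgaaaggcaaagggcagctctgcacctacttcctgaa
Both ADCY4 probes are 60 bases long with a GC content of 55%, and the ADCY1 probe has 45%. None of the 11 probes shares a run of 20 bases with any other probe on the array, on either strand.

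ADCY1, ADCY3, ADCY4, ADCY6 and ADCY9 had signal in T47D cells, and ADCY2, ADCY5, ADCY7 and ADCY8 did not rise well above background on any of the 9 arrays. To be tested, a probe had to be marked well above background by the scanning software on all 3 arrays of any line. This kept 6 of the 11 adenylate cyclase probes, for 5 of the 9 genes, and 20106 genes in all. Signals are quantile-normalized intensities, line means are geometric means, and SDs are on the log2 scale. The lowest signal well above background was 9.59 to 15.2, depending on the array. The share of probes well above background differed little between arrays, at 44.0% to 48.0%. Replicate 1 of T47D-PA6 had 117 outlier spots left out, against 46 to 68 on the other arrays. Replicate 1 of every line shared 1 slide that was scanned in an earlier run. It differed from the other replicates of its line by a median of 0.21 to 0.27 on the log2 scale, against 0.09 to 0.11 between replicates 2 and 3. All 8 luminal epithelial markers were well above background in the 3 lines, and 1 of them was called. PGR, the progesterone receptor, was lower in T47D-PA6 by a log2 difference of -1.07 from T47D-VC1 and -0.69 from T47D-PA5 (limma adjusted p = 0.0072 and 0.037). Of 15 markers of other cell types, 5 (CD3E, PECAM1, COL1A2, KRT5 and TP63) were well above background on no array, and the summed signal of the 15 was 1620 to 1740 in T47D-VC1, 1790 to 2200 in T47D-PA5 and 1840 to 2020 in T47D-PA6. Of the 15, 8 could be tested and 3 were called in T47D-PA6 against T47D-VC1, beside 10.0% of all genes. CD14 and RBFOX3 were higher and COL1A1 lower. In T47D-PA5, CD14 and RBFOX3 also lay above T47D-VC1, by log2 differences of 1.27 and 0.53 (limma adjusted p = 0.073 and 0.086). Neither was called between T47D-PA6 and T47D-PA5 (limma adjusted p = 0.30 and 0.49). The part of these markers and of PGR in the results was not tested.

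**Figure D1:**
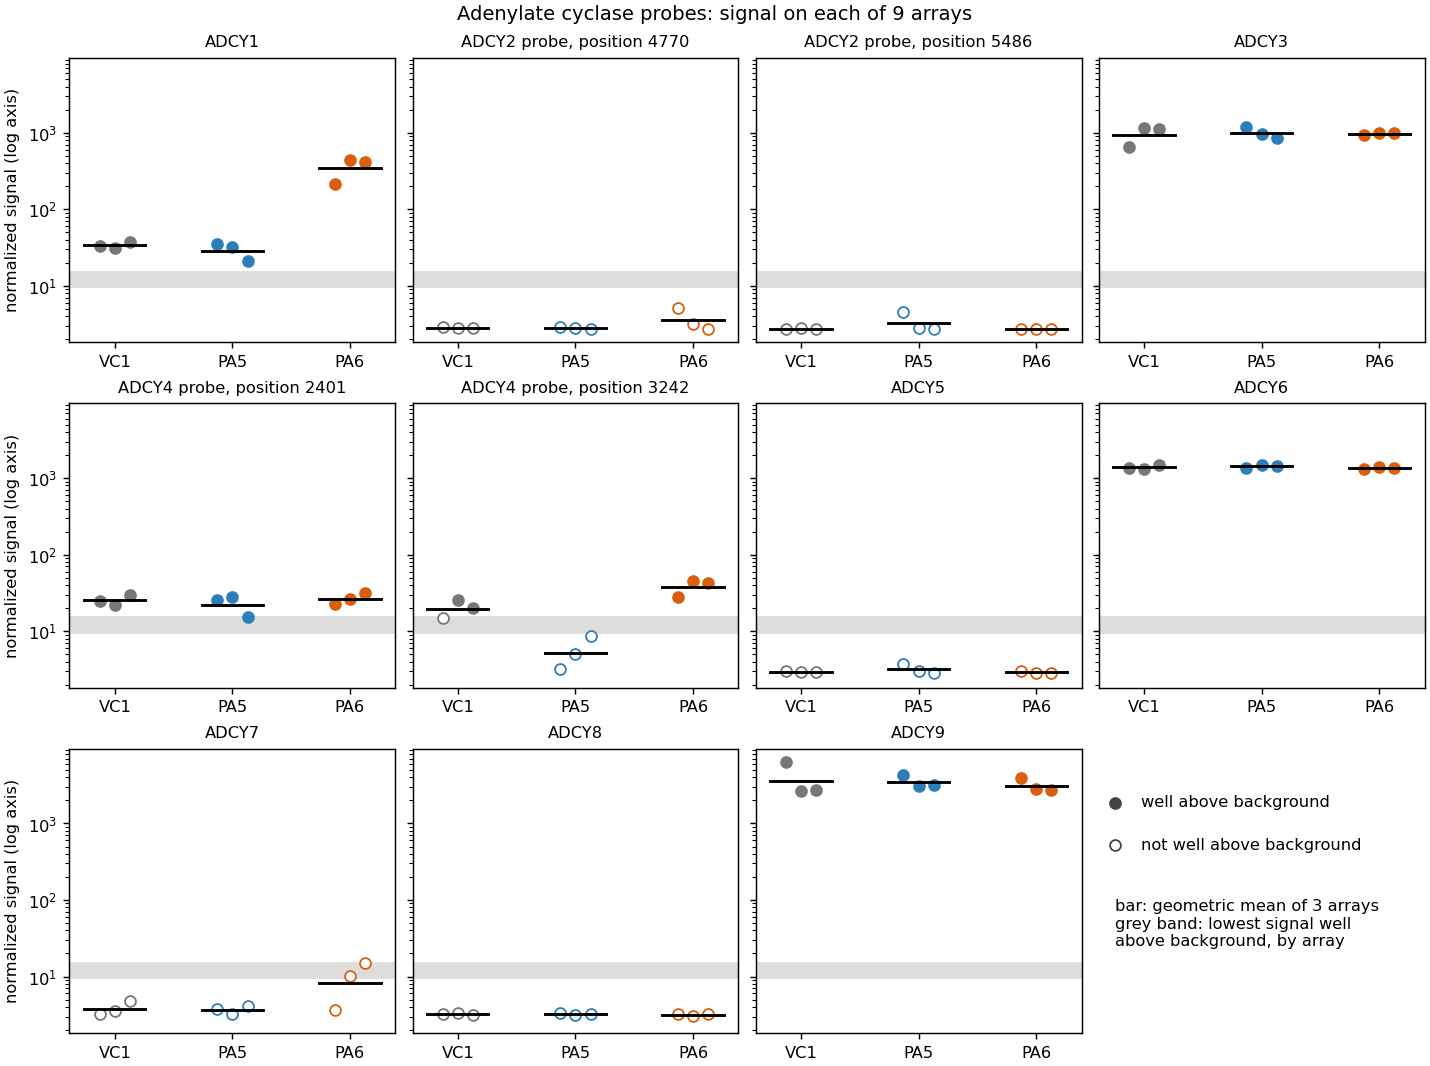
Normalized signal (log axis) of each of the 11 adenylate cyclase probes on the 9 arrays, grouped by line, with replicates 1 to 3 from left to right. Filled points are well above background, open points are not, bars are geometric means of 3 arrays, and the grey band spans the lowest signal well above background, 9.59 to 15.2. ADCY1 stood at 215 to 445 in T47D-PA6 against 21.1 to 37.3 in the other lines, and the ADCY4 probe at position 3242 has open points for all 3 arrays of T47D-PA5 and 1 of T47D-VC1.

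ADCY1, the calmodulin-stimulated cyclase best known from neurons, was 10.1-fold higher in T47D-PA6 than in the empty-vector line. Its signal was 33.1, 31.1 and 37.3 on the T47D-VC1 arrays, 35.4, 32.1 and 21.1 on the T47D-PA5 arrays and 215, 445 and 415 on the T47D-PA6 arrays. All 3 T47D-PA6 arrays lay above all 6 others, and T47D-VC1 and T47D-PA5 overlapped. The probe was well above background on all 9 arrays, so ADCY1 RNA was also detected without full-length PTH-AS.

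The mean ADCY1 signal of T47D-PA6, 341 (SD 0.58, n = 3), was 10.1-fold that of T47D-VC1, 33.7 (SD 0.14, n = 3). The log2 difference was 3.34 (SE 0.29, 95% interval 2.67 to 4.01, limma adjusted p = 0.00063). Against T47D-PA5, with a mean of 28.9 (SD 0.40, n = 3), it was 11.8-fold, a log2 difference of 3.56 (SE 0.29, 95% interval 2.89 to 4.23, limma adjusted p = 0.00094). T47D-PA5 and T47D-VC1 differed by -0.23 (95% interval -0.90 to 0.45, limma adjusted p = 0.78). In the order of lines, T47D-PA6 came first and the other two did not differ beyond their spread.

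The ADCY1 difference was present on each slide that held both lines. T47D-PA6 exceeded T47D-VC1 by 2.70 on slide 1, with 1 array of each, and by 3.52 on slide 3, with 2 arrays against 1. Over T47D-PA5 the log2 differences were 2.60 and 4.35 on the same slides. Replicate 1 of T47D-PA6, on slide 1, had 0.50 times the signal of the other replicates of that line. The rise over T47D-VC1 fell to 2.10 on the log2 scale (limma adjusted p = 0.00034) with a background correction that adds 50 to every signal, which compresses the differences of dim probes.

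ADCY1 was the single member called against T47D-VC1 in T47D-PA6. The count is 1 of 5 genes tested, where 10.0% of all genes tested were called. The lines did not overlap for 1 of 5, against 30.9% of all genes. The median log2 difference of the 5 was 0.05, and that of all genes was -0.03. In T47D-PA5 against T47D-VC1, 0 of 5 were called by limma, with 1.67% of all genes called, and also 0 of the 5 at an unadjusted p under 0.05 or by the methods' t-test. The lines overlapped for all 5, while 23.3% of all genes did not overlap. In T47D-PA6 against T47D-PA5 the count was again 1 of 5, ADCY1, with 9.71% called and 32.7% not overlapping among all genes. These comparisons share arrays, so they are not independent of each other. By the study's definition of a ratio over 2 or under 0.6, applied to the 5 genes tested, ADCY1 was up in T47D-PA6 against both lines and the other 4, ADCY4 read at position 2401, were neither up nor down in any comparison. The study's supplement lists both ADCY1 and ADCY4 with ratios over 2 in T47D-PA6 against T47D-VC1 and names no probe. Its ratio for ADCY1 differs between its lists. Among all genes, 7.64% were up or down in T47D-PA6 against T47D-VC1, 3.92% in T47D-PA5 against T47D-VC1 and 8.0% in T47D-PA6 against T47D-PA5.

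**Figure D2:**
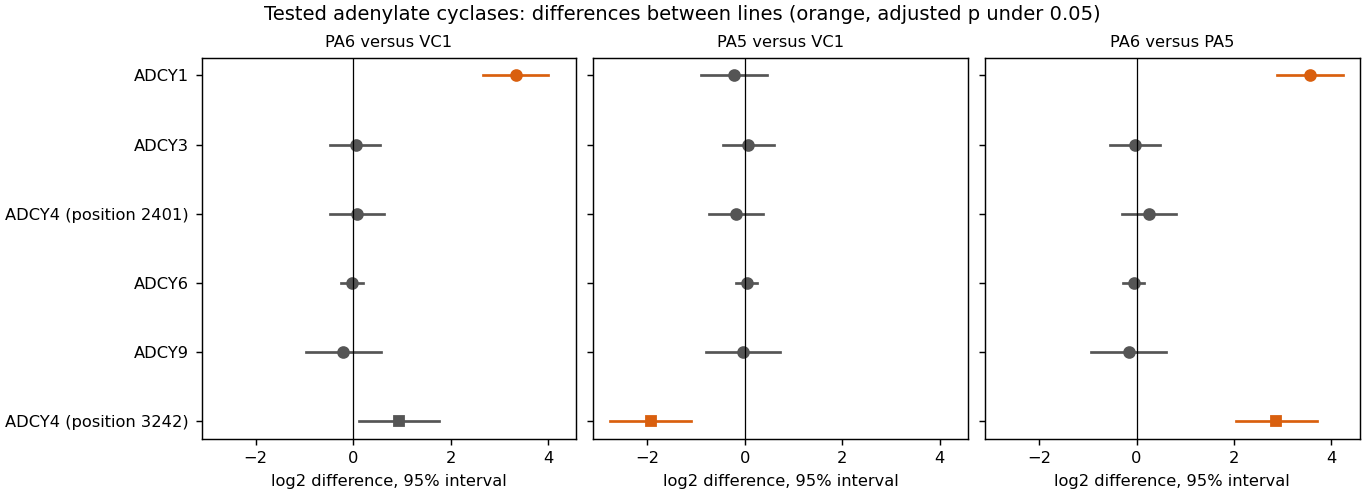
Log2 differences between lines, first line minus second, with 95% intervals from limma for the 5 tested genes (circles) and the other ADCY4 probe (squares). Orange marks an adjusted p under 0.05, over all genes for circles and over all probes for squares. ADCY1 stood apart in both comparisons with T47D-PA6, at 3.34 and 3.56, and the intervals of ADCY3, ADCY6 and ADCY9 included 0 in all 3. The squares in both comparisons with T47D-PA5 use measured signals that were not well above background in that line, for which the text gives bounds.

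ADCY4, a cyclase stimulated by G protein beta and gamma subunits, depended on the probe. At position 2401, the probe that stands for the gene because its mean signal was the higher of the pair, the signal was 24.8, 22.0 and 29.5 in T47D-VC1, 25.5, 28.3 and 15.2 in T47D-PA5 and 22.3, 26.5 and 31.9 in T47D-PA6. The 3 lines overlapped. T47D-PA6 differed from T47D-VC1 by 0.07 on the log2 scale (95% interval -0.48 to 0.63, limma adjusted p = 0.88).

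At position 3242 the signal was 14.7, 25.6 and 20.1 in T47D-VC1, 3.20, 5.07 and 8.52 in T47D-PA5 and 27.7, 45.6 and 42.4 in T47D-PA6. The lines did not overlap, with T47D-PA6 highest and T47D-PA5 lowest. This probe was well above background on 2 of 3 T47D-VC1 arrays, on none of T47D-PA5 and on all 3 of T47D-PA6, so only a bound can be given for T47D-PA5.

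T47D-PA6 was at least 2.90-fold higher than T47D-PA5 at this probe, with measured means of 37.7 and 5.17 (limma adjusted p = 0.0041 over all probes, 0.017 with no filter on dim probes). T47D-VC1, at 19.6, was at least 1.51-fold higher than T47D-PA5 (limma adjusted p = 0.042, 0.13 with no filter). The probe entered the test through the T47D-PA6 arrays alone, where it is highest, so these p-values are a description and not support. These bounds set the mean of the brighter line against the lowest signal well above background on the T47D-PA5 arrays. T47D-PA6 was 1.92-fold above T47D-VC1, a log2 difference of 0.94 (SE 0.36, 95% interval 0.11 to 1.77, limma adjusted p = 0.14), which did not pass the test although the lines did not overlap. The difference from T47D-VC1 in T47D-PA5 lost its call in 11 of 19 alternatives and that from T47D-PA6 in 1 of 19, the methods' t-test (adjusted p = 0.063). T47D-PA6 over T47D-VC1 gained a call in 3 of 19.

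Since probes differ in how well they bind, only the change of their difference between lines can be read. The log2 signal at position 3242 minus that at position 2401 averaged -0.36 (SD 0.51) in T47D-VC1 and 0.50 (SD 0.25) in T47D-PA6. The T47D-PA6 arrays, at 0.31, 0.78 and 0.41, lay above those of T47D-VC1, the highest of which was 0.21. One T47D-VC1 array was not well above background at position 3242, and no value is given for T47D-PA5, where none was. With 3 arrays against 3, an exact permutation test cannot go below p = 0.1. If the mean of both probes stood for the gene, ADCY4 would be called in T47D-PA5 against T47D-VC1 and in T47D-PA6 against T47D-PA5 (limma adjusted p = 0.031 and 0.0031), which rests on the same signals below background in T47D-PA5. Over probes in place of genes, 1 of 6 adenylate cyclase probes was called in T47D-PA6 against T47D-VC1 (10.6% of all probes), 1 of 6 in T47D-PA5 against T47D-VC1 (1.62%) and 2 of 6 in T47D-PA6 against T47D-PA5 (9.91%).

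**Figure D3:**
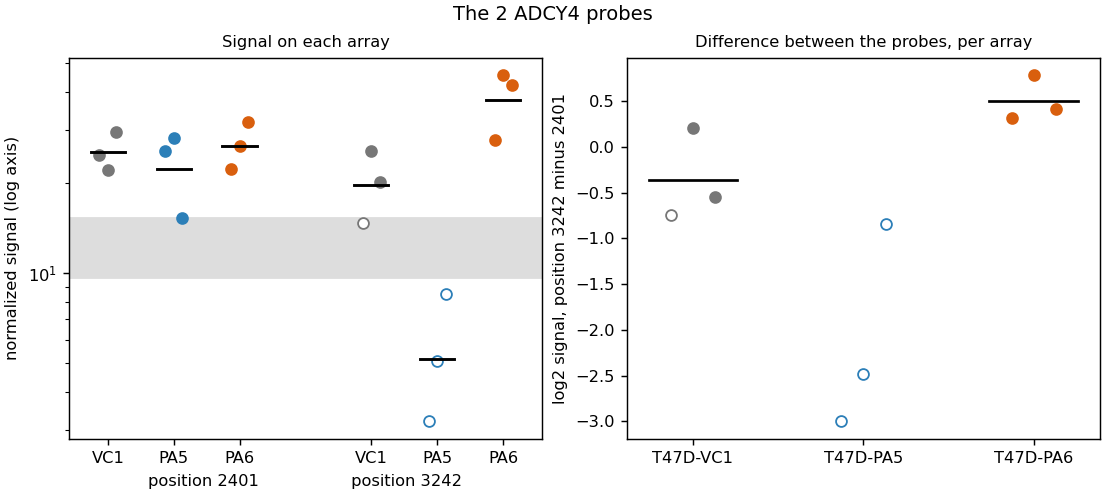
The ADCY4 probes at transcript positions 2401 and 3242. Left, normalized signal (log axis) on each array, filled where well above background, with geometric means as bars and the grey band at the lowest signal well above background. Right, the log2 signal at position 3242 minus that at 2401 on each array, with means of -0.36 for T47D-VC1 and 0.50 for T47D-PA6 as bars. Open points on the right rest on a signal at position 3242 that was not well above background, and T47D-PA5, with open points alone, has no bar.

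ADCY3, a calcium-responsive cyclase found in many tissues, was level across the lines. Its signal was 650, 1160 and 1110 in T47D-VC1, 1200, 967 and 844 in T47D-PA5 and 946, 992 and 988 in T47D-PA6. All lines overlapped, and the lowest array was replicate 1 of T47D-VC1. The log2 differences were 0.05 (95% interval -0.47 to 0.56) for T47D-PA6 against T47D-VC1, 0.07 (-0.44 to 0.59) for T47D-PA5 against T47D-VC1 and -0.03 (-0.54 to 0.49) for T47D-PA6 against T47D-PA5, with limma adjusted p of 0.92 to 0.96. Without slide 1 the difference of T47D-PA5 from T47D-VC1 turned to -0.33 (limma adjusted p = 0.049), so its sign and its side of the threshold depended on the replicate 1 arrays.

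ADCY6, a calcium-inhibited cyclase, had the narrowest intervals of the 5 genes. The signal was 1360, 1300 and 1500 in T47D-VC1, 1340, 1490 and 1440 in T47D-PA5 and 1320, 1410 and 1360 in T47D-PA6. All lines overlapped, and SDs were 0.05 to 0.11. The log2 difference of T47D-PA6 from T47D-VC1 was -0.02 (95% interval -0.24 to 0.20, limma adjusted p = 0.91).

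ADCY9, the cyclase least responsive to forskolin, differed more between replicates than between lines. The signal was 6400, 2670 and 2700 in T47D-VC1, 4350, 3070 and 3220 in T47D-PA5 and 3920, 2830 and 2760 in T47D-PA6. Replicate 1, the array on slide 1, was the highest in every line, at 2.39 times the mean of the other replicates in T47D-VC1, 1.38 times in T47D-PA5 and 1.40 times in T47D-PA6. T47D-PA6 differed from T47D-VC1 by -0.20 (95% interval -0.96 to 0.57, limma adjusted p = 0.76). This difference was -0.71 on slide 1 and 0.05 on slide 3, so its sign was not the same on both. With slide as a block it was -0.23 (limma adjusted p = 0.46).

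For the 4 genes that were not well above background, only the absence of a measurable signal can be given. ADCY2, known from brain, ranged from 2.70 to 5.10 over both of its probes, ADCY5, the striatal and cardiac cyclase, from 2.85 to 3.69, and ADCY8, a second calmodulin-stimulated neuronal cyclase, from 3.08 to 3.35. ADCY7, the main cyclase of many blood cells, had 3.22, 3.58 and 4.77 in T47D-VC1, 3.73, 3.20 and 4.17 in T47D-PA5 and 3.62, 10.1 and 14.9 in T47D-PA6. The last pair reached the range of the lowest signals well above background, but the software marked neither of them so, and no fold is given. With no filter on dim probes, ADCY7 in T47D-PA6 was not called against T47D-VC1 (limma adjusted p = 0.35).

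By likeness over the 9 arrays, the genes closest to ADCY1 were GTPBP2 (Pearson r = 0.9923), a probe named NLGN4Y (r = 0.986) and INHBA (r = 0.9856), out of 20090 genes compared. The 9 points fall into T47D-PA6 and the rest, so these correlations mainly describe that split, and 68 genes exceeded 0.95. INHBA, which encodes the activin A subunit, was well above background on the T47D-PA6 arrays only, with a mean of 48.5 there, at least 3.89-fold above T47D-VC1, whose measured mean was 5.11. It was picked for this pattern, so no test is given. GTPBP2, a GTP-binding protein of translation, went from 3730 in T47D-VC1 and 3590 in T47D-PA5 to 5420 in T47D-PA6. NLGN4Y has a near-identical copy on the X chromosome that can bind the same probe, so its identity is uncertain and its level is not given.

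Around the cyclases, 134 genes of the cyclic AMP pathway were followed in 14 lists, from receptors to CREB targets, and 82 of them could be tested. In T47D-PA6 against T47D-VC1, 13 were called, 5 higher and 8 lower, or 15.9%, beside 10.0% of all genes. In T47D-PA5 against T47D-VC1 it was 4 (4.88%, beside 1.67%), 1 higher and 3 lower. In T47D-PA6 against T47D-PA5 it was 12 (14.6%, beside 9.71%), 7 higher and 5 lower. The medians of the 82 log2 differences were 0.01, -0.08 and 0.03, and those of all genes -0.03, -0.03 and 0.00. The first count ranged from 4 to 17 when single arrays were left out, and was 1 by the methods' t-test after adjustment.

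Of 39 receptors coupled to the stimulatory G protein on the array 11 could be tested, and 4 were called in T47D-PA6 against T47D-VC1. The parathyroid hormone receptors PTH1R and PTH2R were among those not tested, being well above background on no array. PTGER2, a prostaglandin E2 receptor, had 2.98, 7.23 and 2.96 in T47D-VC1 and 41.4, 95.9 and 106.8 in T47D-PA6, at least 6.03-fold higher (limma adjusted p = 0.0019, 0.011 with no filter on dim probes). It was well above background on the T47D-PA6 arrays only and entered the test through them, so this call is no support for a difference in the receptor list. PTGER4, another receptor for the same ligand, went the other way in both transfected lines, from 6253, 6543 and 6759 in T47D-VC1 to 1072, 1900 and 1964 in T47D-PA5 and 1183, 1259 and 1249 in T47D-PA6. The log2 differences from T47D-VC1 were -2.04 (SE 0.21, limma adjusted p = 0.0035) and -2.41 (SE 0.21, limma adjusted p = 0.00063). PTGER4 did not overlap with T47D-VC1 in either.

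CALCR, the calcitonin receptor, was also lower in both, with 148, 67.1 and 60.9 in T47D-VC1, 15.1, 16.1 and 19.2 in T47D-PA5 and 30.7, 21.7 and 26.2 in T47D-PA6 (log2 differences -2.34 and -1.71, limma adjusted p = 0.011 and 0.014). ADRB1, the beta-1 adrenergic receptor, was higher in T47D-PA6, with 128, 101 and 95 against 57.9, 43.1 and 36.7 in T47D-VC1 (log2 difference 1.25, SE 0.22, limma adjusted p = 0.012) and 25.0, 38.1 and 34.7 in T47D-PA5 (1.74, SE 0.22, limma adjusted p = 0.0039). The T47D-PA6 arrays of ADRB1 lay above all the others.

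Of the G proteins that act on cyclases, 1 of 5 inhibitory alpha subunits was called. GNAI1, which lowers cyclase activity, had 18.7, 25.3 and 28.8 in T47D-VC1, 24.4, 26.4 and 24.2 in T47D-PA5 and 67.4, 107.4 and 90.7 in T47D-PA6. Like ADCY1, it was higher on all T47D-PA6 arrays than on the rest, with log2 differences of 1.86 (SE 0.20, limma adjusted p = 0.0016) and 1.80 (SE 0.20, limma adjusted p = 0.0026). Among 13 tested beta and gamma subunits, GNG11 was below T47D-VC1 in T47D-PA6 (log2 difference -0.76, limma adjusted p = 0.037) and in T47D-PA5 (-1.07, limma adjusted p = 0.028). GNGT1, a gamma subunit first known from photoreceptors, was higher in T47D-PA6 than in either line, with log2 differences of 0.53 from T47D-VC1 and 0.62 from T47D-PA5 (limma adjusted p = 0.015 and 0.0082). RGS2, which restrains G protein and cyclase signalling, was called in T47D-PA5, with 40.4, 47.6 and 55.8 against 22.5, 18.8 and 18.9 in T47D-VC1 (log2 difference 1.25, SE 0.15, limma adjusted p = 0.0056), and T47D-PA6, at 24.9, 21.2 and 25.3, lay below T47D-PA5 (-1.0, limma adjusted p = 0.0061). CAP2, a cyclase-associated protein, was lower in T47D-PA6 against T47D-VC1 (-0.46, limma adjusted p = 0.048). Its mean signal in T47D-PA5, 807, was as low as the 821 of T47D-PA6, beside 1130 for the empty vector. The lower level was thus shared by both transfected lines, although T47D-PA5 was not called against T47D-VC1.

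Downstream of cyclic AMP, calls were spread over kinase subunits, anchoring proteins and enzymes. Of 6 tested protein kinase A subunits, the regulatory PRKAR2A was lower in T47D-PA6 than in the empty-vector line (log2 difference -0.64, limma adjusted p = 0.032). This was not particular to T47D-PA6. The T47D-PA5 arrays of PRKAR2A, at 97.0, 74.6 and 83.2, also lay below all empty-vector arrays, the lowest of which was 121. They overlapped with T47D-PA6, although the difference of T47D-PA5 from the empty-vector line was not called. The catalytic PRKACB (-0.74, limma adjusted p = 0.049) and regulatory PRKAR1A (-0.41, limma adjusted p = 0.045) were lower in T47D-PA6 than in T47D-PA5. The anchoring proteins AKAP12 (-1.0, limma adjusted p = 0.021) and AKAP11 (-0.45, limma adjusted p = 0.035) were the 2 of 8 called in T47D-PA6 against T47D-VC1, both lower. Of 9 tested phosphodiesterases, which break cyclic AMP down, 0 were called by limma against T47D-VC1 in T47D-PA6 or T47D-PA5, with 2 and 3 at an unadjusted p under 0.05 and 0 by the methods' t-test after adjustment. PDE2A was the 1 called in T47D-PA6 against T47D-PA5 (1.30, limma adjusted p = 0.023). ABCC5, a pump that can export cyclic nucleotides, was also higher there (0.66, limma adjusted p = 0.035).

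Of 8 tested CREB target genes, 1 was called higher and 1 lower in T47D-PA6 against T47D-VC1. SIK1, a kinase that restrains CREB signalling, was the higher one, with 99.6, 110 and 94.2 in T47D-PA6 against 75.5, 73.6 and 77.5 (log2 difference 0.42, SE 0.11, limma adjusted p = 0.046). The nuclear receptor NR4A3 had 30.6, 21.6 and 16.2 in T47D-VC1 and 5.0, 12.0 and 5.12 in T47D-PA6, where it was not well above background. T47D-VC1 was at least 1.76-fold higher (limma adjusted p = 0.03, 0.092 with no filter on dim probes). NR4A3 entered the test through the T47D-VC1 arrays alone, where it is high, so its p-values are a description and not support. Both genes were also called in T47D-PA6 against T47D-PA5, SIK1 higher with a log2 difference of 0.54 (limma adjusted p = 0.019) and NR4A3 lower. T47D-PA5 was at least 1.78-fold above T47D-PA6 for NR4A3 (limma adjusted p = 0.029, 0.093 with no filter on dim probes). Of 6 CREB factors and coactivators, CRTC2 was lower in T47D-PA6 against T47D-PA5 (-0.57, limma adjusted p = 0.032). Many of these calls lay near the threshold. In T47D-PA6 against T47D-VC1, calls were lost in 14 of 20 alternatives for CAP2, 13 for SIK1, 12 of 19 for NR4A3, 10 of 20 for GNG11, 9 for AKAP11, 7 each for AKAP12 and PRKAR2A and 5 for GNGT1. The GNG11 call in T47D-PA5 was lost in 10. In T47D-PA6 against T47D-PA5 it was 11 each for PRKACB and PRKAR1A, 10 for ABCC5, 9 for CRTC2, 9 of 19 for NR4A3, 6 of 19 for PDE2A and 5 of 20 for SIK1. The other pathway calls were lost in 0 to 3.

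In 4 lists no gene was called by limma in any comparison, nor by the methods' t-test after adjustment. They hold 2 stimulatory alpha subunits, 3 calmodulin genes, whose product stimulates ADCY1, 3 protein kinase A inhibitors and 2 other cyclic AMP sensors. In T47D-PA6 against T47D-VC1 the unadjusted limma p was under 0.05 for 2 calmodulin genes and 1 inhibitor, in T47D-PA5 against T47D-VC1 for 1 inhibitor, and in T47D-PA6 against T47D-PA5 for 2 calmodulin genes and 1 sensor.

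**Figure D4:**
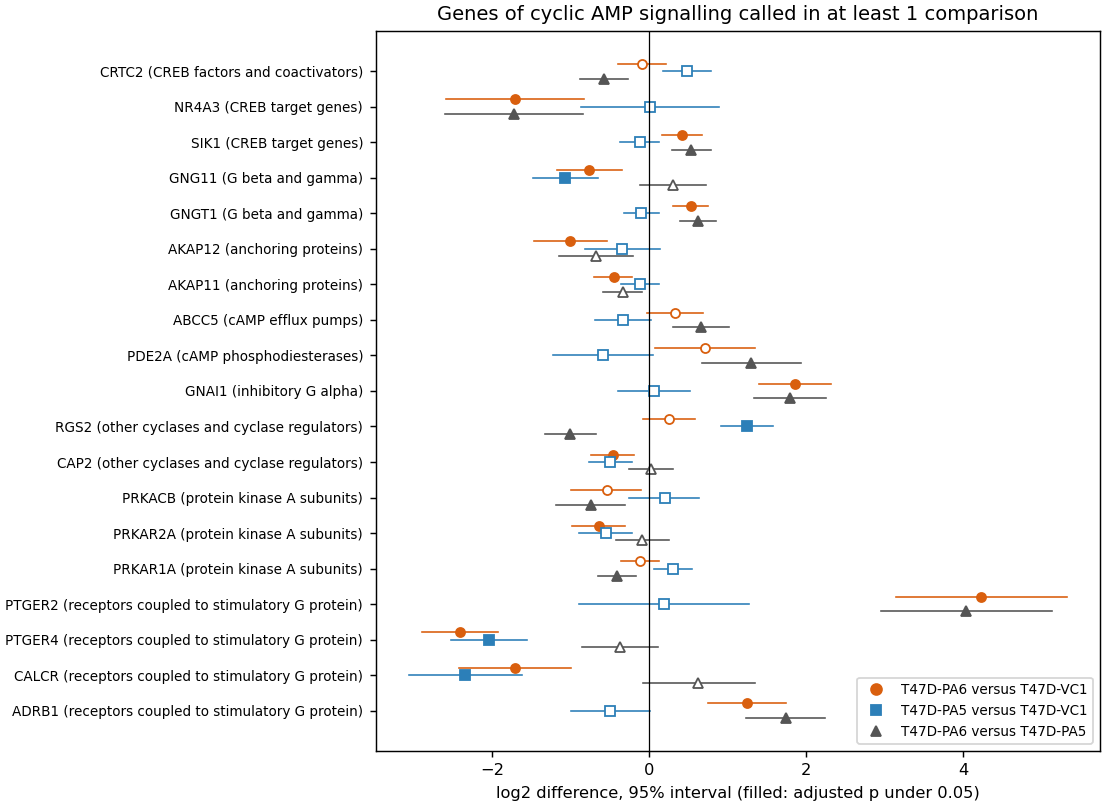
Log2 differences with 95% limma intervals for the 19 pathway genes called in at least 1 comparison, with their lists in brackets. Filled symbols have an adjusted p under 0.05. The points of PTGER2 and NR4A3 in the comparisons with T47D-PA6 use measured signals below background, so only the bounds of 6.03-fold and 5.79-fold for PTGER2 and 1.76-fold and 1.78-fold for NR4A3 can be read from them. PTGER4 and CALCR lay to the left in both comparisons with T47D-VC1.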

How the data were processed

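Total RNA was labeled with a single-color kit and hybridized to SurePrint G3 Human Gene Expression v3 arrays, 3 per line. The authors deposited the intensity of each spot as Agilent Feature Extraction gave it (version 10.7.1.1 per the file headers, 9.5.1.1 per the labels), background-subtracted and not normalized between arrays, and a table of intensities quantile-normalized by the authors. Of 62976 spots, 60901 were not controls and stood for 58201 probes. Here log2 intensities were averaged over the spots of a probe, 46 to 117 outlier spots per array were left out, and arrays were quantile-normalized. Genes were read from their tested probe with the highest mean signal and compared with limma 3.58.1 in R 4.3.3 over all 9 arrays, with Benjamini-Hochberg adjustment over 20106 genes or 26171 probes and a threshold of 0.05. The code was tested on simulated data. For arrays, their number limits the precision.

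The family and the pathway and marker lists were chosen with earlier results of these data known. Named were all 9 members, up to 4 called genes per list by size of change, and the 3 genes most like the member with the widest range of line means. The names of other genes were brought up to date with a RefSeq table, and member names are those of the files. Alternatives were normexp with an offset of 50, a shift to the same 75th percentile, the authors' table, no filter or only probes well above background on all 9 arrays, slide and replicate blocks, each array left out, the methods' t-test, a fit to the 2 lines compared, and the mean of a gene's probes. Leaving out slide 1 was chosen after seeing the data.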

Additional observations from a re-analysis of the deposited data

How the results depend on the processing

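The ADCY1 differences of T47D-PA6 from T47D-VC1 and T47D-PA5 kept direction and call in all 20 alternatives, from 2.10 to 3.67 and from 2.17 to 4.04 on the log2 scale. Leaving out single arrays gave 3.15 to 3.67 and 3.34 to 3.90. Adenylate cyclase genes called in T47D-PA6 against T47D-VC1 stayed at 1 throughout. With the mean of a gene's probes, 1 gene was called, and 1 was down by the study's definition, in T47D-PA5 against T47D-VC1, and 2 and 2 in T47D-PA6 against T47D-PA5, the added gene being ADCY4. With no filter on dim probes, the study's definition gave 2 in both comparisons of T47D-PA6. There the added gene was ADCY7, which was well above background on no array.

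Counts of adenylate cyclase probes moved with the ADCY4 probe at position 3242. In T47D-PA5 against T47D-VC1 the count fell from 1 to 0 with normexp, with no filter, with only probes well above background on all 9 arrays, by the methods' t-test and with only the 2 lines' arrays, and was 0 to 1 with single arrays left out. In T47D-PA6 against T47D-VC1 it was 2 with the 75th percentile, the replicate block and without slide 1. In T47D-PA6 against T47D-PA5 it was 1 with the all-array filter, which removes that probe, and by the methods' t-test.

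Of pathway genes (13, 4 and 12 called in T47D-PA6 against T47D-VC1, T47D-PA5 against T47D-VC1 and T47D-PA6 against T47D-PA5), 7 and 7 were called with no filter in the comparisons of T47D-PA6, 1, 0 and 7 by the methods' t-test, and 6 with the 2 lines' arrays in the first comparison. Of all genes (2017, 335 and 1952), it was 1285, 198 and 1262 with no filter, 432, 39 and 790 by the methods' t-test (4447, 3011 and 4858 unadjusted), 1146 with the 2 lines' arrays in the first comparison, and 608 with slide as a block in the second. With single arrays left out, pathway genes called ranged from 4 to 17, 2 to 6 and 5 to 18, and all genes from 703 to 2768, 99 to 621 and 726 to 2950. Without slide 1, an alternative chosen after seeing the data, 39, 23 and 33 pathway genes and 7469, 4309 and 7142 genes were called, and 1 adenylate cyclase gene, ADCY3, in T47D-PA5 against T47D-VC1. The cause was not tested.

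Signs turned for ADCY3, ADCY4, ADCY6 and ADCY9, none of them called with the main settings. ADCY3 in T47D-PA6 against T47D-VC1 was -0.01 with the 75th percentile and -0.20 without slide 1, in T47D-PA6 against T47D-PA5 0.02 with slide as a block and 0.13 without slide 1, and in T47D-PA5 against T47D-VC1 -0.33 without slide 1, where it passed the threshold (limma adjusted p = 0.049). Without slide 1, ADCY9 was 0.06 in T47D-PA6 and 0.23 in T47D-PA5 against T47D-VC1. With single arrays left out, ADCY3 ranged from -0.22 to 0.20, -0.20 to 0.22 and -0.14 to 0.11 in the order of comparisons above, ADCY4 at position 2401 from -0.06 to 0.20, -0.36 to 0.09 and -0.02 to 0.43, ADCY6 from -0.07 to 0.04 in T47D-PA6 and 0.00 to 0.10 in T47D-PA5 against T47D-VC1, and ADCY9 from -0.41 to 0.22 and -0.25 to 0.39 in the same comparisons.

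The replicate numbers were not used as pairs, because the labels do not say that they mark a batch and not every same-number correlation exceeded 0.1. Replicate 1 of every line did share slide 1, and the pairs of replicate 1 correlated at 0.21 to 0.34. Same-number arrays of different lines correlated at 0.10 to 0.34 (8 of 9 pairs over 0.1), others at -0.31 to 0.26, and an array's own number correlated best in 9 of 18 cases. With a replicate block, the ADCY1 differences were 3.34 and 3.56 (limma adjusted p = 0.0028 and 0.0038), and the ADCY4 probe at position 3242 was called in T47D-PA6 against T47D-VC1 (0.94, limma adjusted p = 0.039). Dim probes limit what can be read, since signals below about the lowest well above background give only bounds.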

Other observations

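Around ADCY1 on chromosome 7, 19 other tested genes had their probe within 1 Mb of it on hg19, a window chosen after values were seen. In T47D-PA6 against T47D-VC1, 2 of them were called by limma, both higher, SNORA9 (log2 difference 0.46, SE 0.10, limma adjusted p = 0.03) and the noncoding transcript XLOC_l2_013383 (0.78, SE 0.20, limma adjusted p = 0.042). Their differences from T47D-PA5, 0.22 and 0.28, did not pass the test (limma adjusted p = 0.24 and 0.43), and those of ADCY1 were 3.34 and 3.56. The median over the 19 was 0.09 against T47D-VC1 and 0.21 against T47D-PA5. Around ADCY9, 9 of 71 genes were called lower and 0 higher in T47D-PA6 against T47D-VC1, with a median of -0.26, and ADCY9 itself was at -0.20 with a limma adjusted p of 0.76. Around ADCY4, 9 of 46 were called, all higher, with a median of 0.10 and a range of -0.56 to 4.61. Around ADCY3 it was 3 of 20, with a median of -0.04, and around ADCY6 1 of 55, with a median of 0.00. Of all genes, 10.0% were called in this comparison.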
